A study of Mus musculus with 6 samples.

Results

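The enzymes that turn arachidonic acid into prostaglandins, thromboxane and leukotrienes were compared between lymphoid cells and lineage-negative progenitor cells of a mouse leukaemia. 10 genes were chosen by name, and all 10 were found among the 55401 genes of the deposited table. 1 of them, Ptgs1, was picked for its high level in the progenitor cells, so its difference between the groups is described and not tested. Of the 10 genes, 7 passed the filter on low values (a normalized count of at least 10 in at least 3 libraries) and 3 did not.

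Total RNA was sequenced from bone marrow cells of 6 mice, all secondary recipients of a Hoxa9/Meis1 acute myeloid leukaemia, named after 2 homeobox factors that the cells of both groups share as drivers. The group Lym holds lymphoid leukaemic stem cells of mice 62, 63 and 87, whose graft had been lymphoid, and the group Lin- holds lineage-negative, Kit-positive progenitors of mice 56, 57 and 91, whose graft had been Lin-. Lists of values below keep this order of mice. Each mouse gave 1 library. The labels used here give neither the age, strain or donor of a mouse nor the markers by which the Lym cells were sorted, and whether mice share a donor leukaemia is not known. The title of the series places a pro-B population at the top of the leukaemic hierarchy, and the design gives 1 comparison, Lym minus Lin-.

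Free arachidonic acid is released from membranes by phospholipases such as cytosolic phospholipase A2. Cyclooxygenases convert it to prostaglandin H2, from which terminal synthases make prostaglandin E2, prostaglandin D2 or thromboxane A2. In the other branch 5-lipoxygenase, helped by its activating protein, makes leukotriene A4, which a hydrolase turns into the chemoattractant leukotriene B4 and a synthase into leukotriene C4. These enzymes are best known from myeloid cells, mast cells and platelets.

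Reads assigned to genes came to 18537700 to 22634286 per library, and a floor of 3 reads equals a normalized count of 2.64 to 3.36, which covers counting error only. Across the 14273 genes that passed the filter, the Lym library of mouse 87 had a Pearson correlation of log2 values of 0.965 to 0.979 to the Lin- libraries, and of only 0.927 and 0.948 to those of Lym mice 62 and 63. Lym mouse 63 had 0.958 to Lym mouse 62 and 0.944 to 0.961 to the Lin- libraries, so it too stood near them. Lym mouse 62, whose library came from 1 ng of RNA against 2 ng for the other mice, had 0.919 to 0.943 to Lin-. The part of this input in its values was not tested. These values are across genes and carry no test. Because the library of mouse 87 was closer to each Lin- library than to either other Lym library, differences of the enzymes are given with and without it. Leaving out a library for its likeness to the other group tends to widen differences, so calls without it are no separate support. Of 14 lymphoid markers 4 passed the filter, 3 with a positive and 1 with a negative difference. Pax5, Vpreb3 and Blnk had at most 3 reads in any library, and Cd79a reached at most 4.48. Il7r, the interleukin 7 receptor, was at 424, 82.8 and 14.3 across the Lym libraries and at 2.65, 3.52 and 4.13 across the Lin- libraries. Dntt, the terminal transferase of early lymphoid cells, was at 216, 29.1 and 4.76 in Lym with no read in Lin-, and Ebf1, an early B cell factor, was at 59.4, 6.71 and 14.3 against 0, 1.76 and 0. The recombinase genes Rag1 and Rag2 were highest in Lym mouse 62, at 104 and 361, but in Lym mouse 87 Rag1 was at 1.91, under the floor, and Rag2 at 27.6, inside the Lin- range. Cd79b ran the other way, with means of 175 in Lym and 248 in Lin- and overlapping groups. Kit, by which the Lin- cells are labelled, reached 18902, 12027 and 3158 across the Lym libraries, above the 4953, 6066 and 3420.2 of the Lin- libraries for mice 62 and 63 only. Of 10 progenitor markers 9 passed the filter, all 9 with a positive difference, so this list too ran higher in Lym. In 5 of them every Lym library lay above every Lin- library, as in 8.49% of all genes tested. Myb led the list, at 43579, 29322 and 27613 against 23477, 25883 and 21926, followed by Meis1 with overlapping groups.

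Promoter sequences, from 250 bases before to 50 bases after a RefSeq start site in GRCm38.p6, were matched for 9 of the 10 genes by symbol. Those of Ptgs1 and Tbxas1 are shown because these were the 2 genes that lay lower in every Lym library than in any Lin- library. Those of Alox5 and Lta4h are shown because they belong to the scarcest and one of the most abundant enzymes of the leukotriene branch above the filter. Capitals mark matches on either strand to the GC box GGGCGG, the TATA box TATAAA, the CCAAT box, the ETS-type site AGGAAG or the GATA-type site AGATAA, and neighbouring matches run together.
Ptgs1, chr2:36230176-36230475, plus strand: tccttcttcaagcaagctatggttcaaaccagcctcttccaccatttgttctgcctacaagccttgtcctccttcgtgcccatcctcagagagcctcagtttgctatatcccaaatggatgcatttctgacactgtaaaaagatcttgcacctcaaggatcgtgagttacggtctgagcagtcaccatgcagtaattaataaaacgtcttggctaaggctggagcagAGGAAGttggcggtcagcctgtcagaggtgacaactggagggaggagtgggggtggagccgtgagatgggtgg
Tbxas1, chr6:38918736-38919035, plus strand: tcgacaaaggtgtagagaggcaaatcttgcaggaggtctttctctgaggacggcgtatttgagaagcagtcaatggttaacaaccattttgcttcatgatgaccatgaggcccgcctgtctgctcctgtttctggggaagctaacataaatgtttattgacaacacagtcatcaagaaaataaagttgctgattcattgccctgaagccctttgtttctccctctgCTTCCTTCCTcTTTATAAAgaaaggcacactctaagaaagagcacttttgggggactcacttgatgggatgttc
Alox5, chr6:116461129-116461428, minus strand: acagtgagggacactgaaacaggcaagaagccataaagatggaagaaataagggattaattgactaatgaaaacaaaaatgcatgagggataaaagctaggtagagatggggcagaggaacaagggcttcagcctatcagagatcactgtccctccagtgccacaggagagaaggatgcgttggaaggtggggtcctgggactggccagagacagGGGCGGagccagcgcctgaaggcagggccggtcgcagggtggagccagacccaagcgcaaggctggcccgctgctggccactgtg
Lta4h, chr10:93453146-93453445, plus strand: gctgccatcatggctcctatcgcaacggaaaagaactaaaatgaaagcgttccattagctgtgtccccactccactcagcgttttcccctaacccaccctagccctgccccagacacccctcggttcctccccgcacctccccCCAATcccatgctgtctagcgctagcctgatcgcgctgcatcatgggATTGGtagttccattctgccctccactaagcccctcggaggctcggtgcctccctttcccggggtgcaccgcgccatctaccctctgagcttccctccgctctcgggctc
The Ptgs1 window holds 1 ETS-type match, beginning 23 bases before the start. The RefSeq start of Tbxas1 lies inside the gene as GENCODE draws it. Its window holds 2 ETS-type matches, beginning 24 and 20 bases before it, and 2 overlapping TATA box matches that begin 13 and 11 bases before it. The Alox5 window holds 1 GC box, beginning 35 bases before the start, and the Lta4h window 2 CCAAT boxes at 107 and 60 bases. Among all 32851 promoter windows of the same length, 35.4% hold the ETS-type letters, 13.6% the TATA box, 35.7% the GC box, 37.4% the CCAAT box and 11.2% the GATA-type letters. A match is a description of these letters and not a measured binding site.

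Ptgs1, the constitutive cyclooxygenase (chromosome 2, 36230426 to 36252272 in GRCm38), measured in normalized counts, read 34.8, 44.8 and 183 across the Lym libraries and 575, 824 and 400.2 across the Lin- libraries. All 3 Lym libraries lay below all 3 Lin- libraries, and Lym mouse 87 lay between the other Lym libraries and the Lin- group. The ratio of the Lin- mean to the Lym mean was 6.85, with means of 87.5 ± 82.8 in Lym and 599.7 ± 213 in Lin- (SD, n = 3 each). The log2 difference of (normalized count + 2), Lym minus Lin-, was -3.08, or -3.80 without Lym mouse 87. This scale understates the change of low genes. Ptgs1 was chosen for this pattern, and 7.08% of all genes tested had every Lym value under every Lin- value, so nothing is read from it. The gene model Gm43621 on the opposite strand shares exon sequence with Ptgs1 and was counted at 5.59 or less in every library. Ptgs2, the inducible cyclooxygenase (chromosome 1, 150100031 to 150108227), had 5 reads in Lin- mouse 56, a normalized count of 4.41, and 0 reads in the other 5 libraries. Its level was thus at or near the floor in both groups, and no difference could be detected at this depth.

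**Figure D1:**
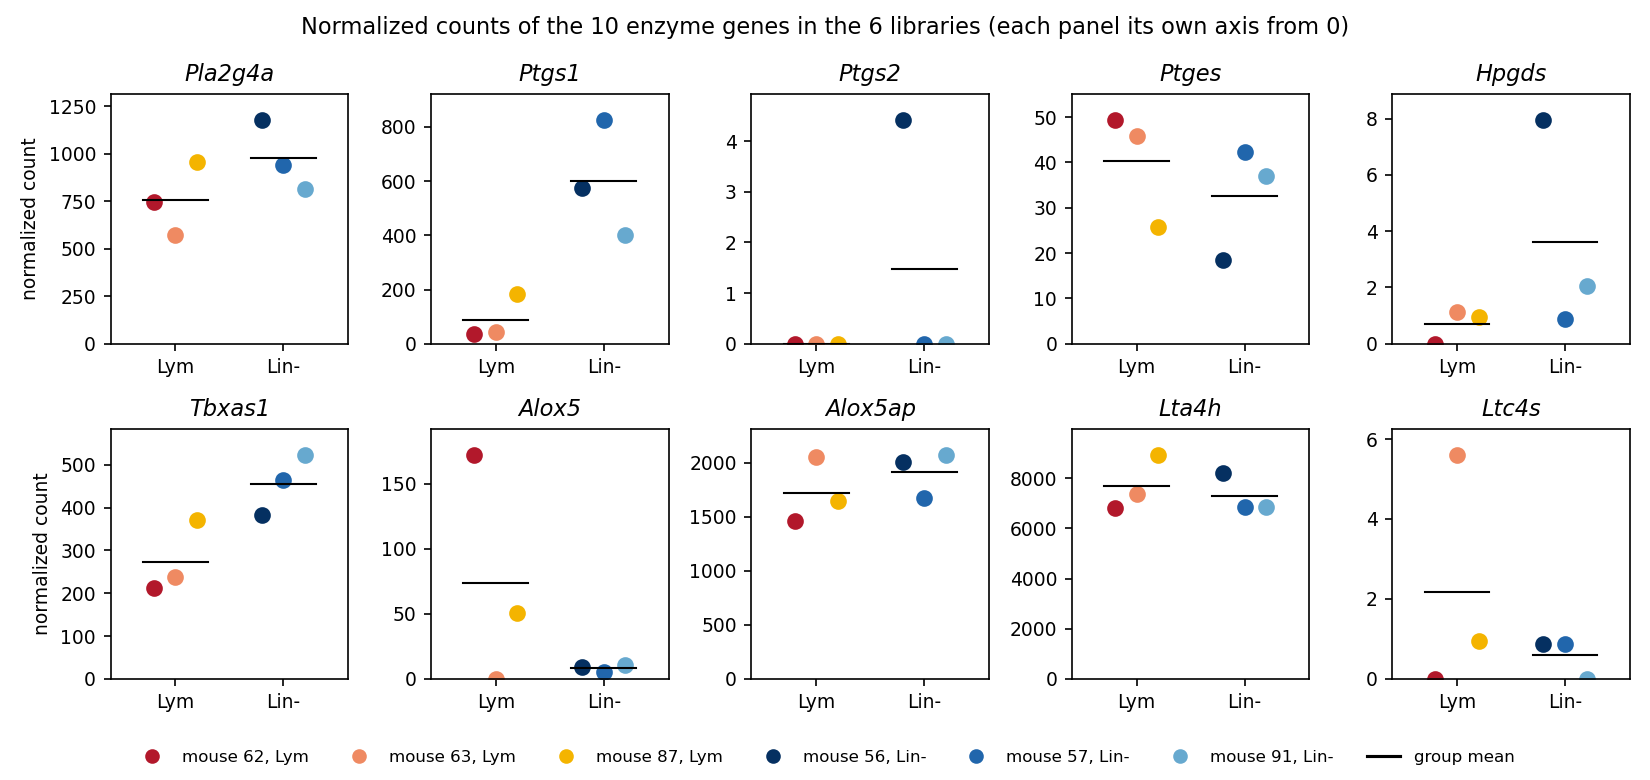
Normalized counts of the 10 enzyme genes, 1 point per library and a line at each group mean (n = 3), each panel with its own linear axis from 0. Ptgs1 runs from 34.8 to 183 in Lym and from 400.2 to 824 in Lin-, while Ptgs2, Hpgds and Ltc4s stay below 8 in every library.

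Among genes that resemble Ptgs1, the 5 nearest by the mean absolute difference of centred log2 values over the 6 libraries were Glb1l2, Rhoj, Gpx3, Sqor and Clec5a, at 0.38 to 0.47. Gpx3, the secreted glutathione peroxidase, was at 33.6, 60.4 and 205 across the Lym libraries and at 302, 570.3 and 534 across the Lin- libraries. Clec5a, a lectin-type receptor on myeloid cells, read 11.2, 41.4 and 74.3 against 368, 256 and 218. In all 5 genes Lym mouse 87 had the highest Lym value, as it did for Ptgs1, and for Rhoj and Glb1l2 that value lay inside the Lin- range. The 5 genes were picked for likeness over these same libraries, so a shared order follows from the choice and nothing is read from it. With a pseudocount of 8, 4 of the 5 were again among the nearest 5, and Glb1l2 moved to place 15. Of the other enzymes tested Tbxas1 was the most like Ptgs1, at 1.16 and place 320 of 10991 named genes.

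Pla2g4a, the cytosolic phospholipase A2 that releases arachidonic acid (chromosome 1, 149829618 to 149961290), was at 748, 572 and 958 across the Lym libraries and at 1176, 939 and 816 across the Lin- libraries. The groups overlapped, since Lym mouse 87 lay above Lin- mice 57 and 91. The log2 difference was -0.38 ± 0.22 (SE, limma adjusted p = 0.559, Benjamini-Hochberg over all genes tested). It was -0.56 ± 0.19 without Lym mouse 87 (limma adjusted p = 0.103). Pla2g4a and Ptgs2 are neighbours on chromosome 1, 138.7 kb apart and transcribed away from each other.

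Tbxas1, thromboxane synthase (chromosome 6, 38875404 to 39084585), was at 212, 237 and 371 across the Lym libraries and at 383, 465 and 522 across the Lin- libraries. Lym lay below Lin- throughout, though Lym mouse 87 was only just below Lin- mouse 56. The log2 difference was -0.77 ± 0.25 (SE), with an unadjusted limma p of 0.0143 and a limma adjusted p of 0.441, so it did not pass over all genes. Without Lym mouse 87 it was -1.01 ± 0.21 and passed (limma adjusted p = 0.0216), but that library was set aside for its likeness to Lin-. With any other single mouse left out, the limma adjusted p was 0.598 to 0.852. The antisense gene model Gm42962, which shares exon sequence with Tbxas1, was at 0, 0 and 21.9 in Lym and 53.8, 42.2 and 23.7 in Lin-. The use of strand in counting is not given in the sources used here, and its part in the Tbxas1 values was not tested.

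The other 2 terminal prostanoid synthases among the 10 genes were low. Ptges, the inducible prostaglandin E synthase (chromosome 2, 30889471 to 30929863), was at 49.3, 45.9 and 25.7 across the Lym libraries and at 18.5, 42.2 and 37.1 across the Lin- libraries. Both groups spread over about the same range, with a log2 difference of 0.31 ± 0.47 (SE, limma adjusted p = 0.83) that was 0.59 without Lym mouse 87 and -0.03 without Lin- mouse 56. A pseudogene model inside the gene, Gm13400, was counted at 5.28 to 32.5. Hpgds, the haematopoietic prostaglandin D synthase known from mast cells (chromosome 6, 65117293 to 65144908), had 0, 1 and 1 reads in the Lym libraries and 9, 1 and 2 in the Lin- libraries, so that Lin- mouse 56 alone was above the floor.

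In the leukotriene branch, 5-lipoxygenase was scarce and uneven while its activating protein and leukotriene A4 hydrolase were abundant in every library. Alox5 (chromosome 6, 116410077 to 116461178) was at 172, 0 and 50.5 across the Lym libraries and at 8.82, 5.28 and 10.3 across the Lin- libraries. The Lym group thus held both the 2 highest values and the lowest, with 153, 0 and 53 reads. The log2 difference was 1.41 ± 1.41 (SE, limma adjusted p = 0.736). It was -0.70 with library weights, 3.27 without Lym mouse 63, and 3.16 in edgeR with TMM and 3.19 in DESeq2, both on recovered reads. Without Lym mouse 62, Lym mouse 87 or Lin- mouse 91 the gene did not pass the filter of the limma fit.

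Alox5ap, the membrane protein that presents arachidonic acid to 5-lipoxygenase (chromosome 5, 149264767 to 149288153), was at 1464, 2056 and 1642 across the Lym libraries and at 2008, 1677 and 2068 across the Lin- libraries. The groups overlapped, and the log2 difference was -0.17 ± 0.16 (SE, limma adjusted p = 0.722), or -0.14 without Lym mouse 87. The antisense model Gm19719, which shares exon sequence with Alox5ap, was counted at 9.53 to 41.4. Lta4h, the hydrolase that makes leukotriene B4 (chromosome 10, 93453411 to 93484875), was at 6829.9, 7392 and 8913 against 8200, 6864 and 6849. Its log2 difference was 0.07 ± 0.14 (SE, limma adjusted p = 0.863), and -0.03 without Lym mouse 87. Ltc4s, leukotriene C4 synthase (chromosome 11, 50236461 to 50238616), had 0, 5 and 1 reads in Lym and 1, 1 and 0 in Lin-, at or near the floor in both. The antisense model Gm26542, which shares exon sequence with Ltc4s, was counted at up to 12.3, in Lym mouse 63, the library with most Ltc4s reads.

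**Figure D2:**
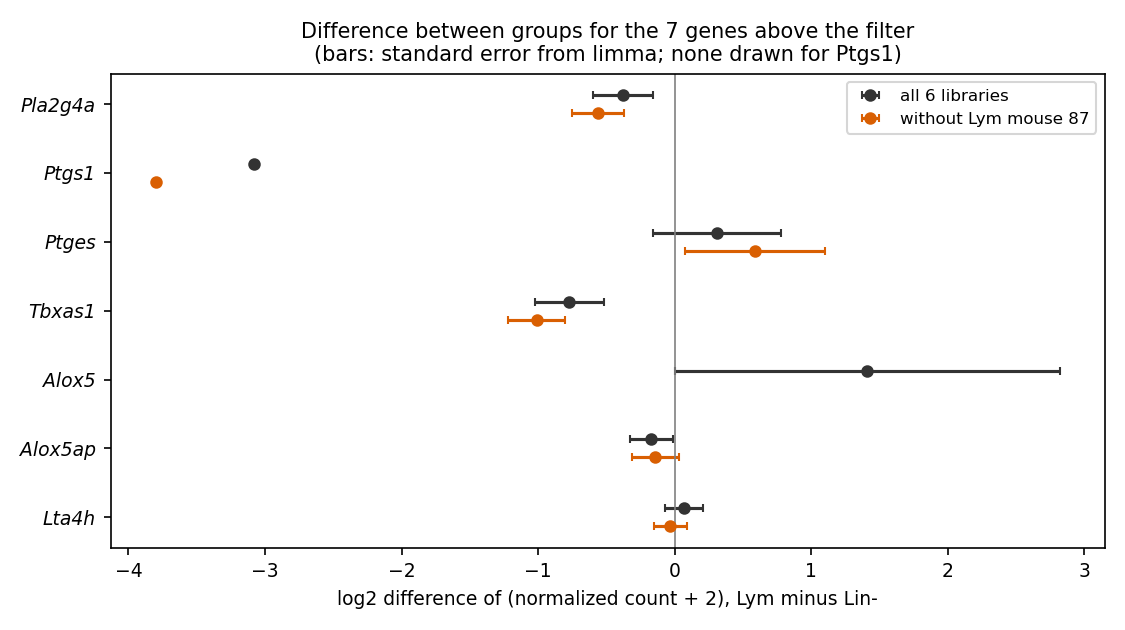
Log2 difference of (normalized count + 2), Lym minus Lin-, of the 7 genes above the filter with all 6 libraries and without Lym mouse 87, with limma standard errors except for Ptgs1. Tbxas1 moves from -0.77 to -1.01 and Pla2g4a from -0.38 to -0.56, Alox5 has the widest bar, and Alox5 was below the filter without mouse 87.

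Of the 6 tested genes other than Ptgs1, limma called 0 at an adjusted p of 0.05, as it did 0.0% of all 14273 genes. In edgeR 0 of the 6 passed, as did 0.0% of all genes, and in DESeq2 0 of the 6 and 1.39%. At an unadjusted p under 0.05 limma had 1 of the 6, Tbxas1, against 10.2% of all genes tested in either direction and 4.27% lower in Lym, and edgeR had 10.1% of all genes. Limma with library weights called 1 of the 6, again Tbxas1, and 4.62% of all genes. Without Lym mouse 87, Alox5 left the filter and 1 of the other 5 was called in limma, again Tbxas1, against 9.67% of all genes in either direction and 4.18% lower in Lym. In the same 5 libraries edgeR gave Tbxas1 a log2 difference of -1.03 (adjusted p = 0.0255) with 8.67% of all genes called, and DESeq2 gave -1.02 (adjusted p = 0.000887) with 12.9% called. 3 of the 6 differences over all libraries were negative and 3 positive, with a median of -0.05, against a median of -0.01 over all genes tested, of which 48.7% were positive. Groups without overlap were seen for 2 of the 7 genes above the filter, Ptgs1 and Tbxas1, both lower in Lym. Among all genes tested 7.08% were so in that direction and 15.6% in either. Ptgs1 was chosen for it, which leaves 1 of the 6 others.

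Per kilobase of exon, the mean levels ran from 1281 normalized counts per kb for Alox5ap to 0.161 for Ptgs2. Alox5ap, at 1031 to 1456 normalized counts per kb over the 6 libraries, and Lta4h, at 1119 to 1461, stood highest, with overlapping ranges. By mean level per kb they exceeded 96.0% and 95.7% of all genes tested. Pla2g4a followed at 89.5 to 184, apart from both. Ptgs1 overlapped Pla2g4a in Lin-, at 103 to 212 per kb, but not in Lym, at 8.95 to 47.1. Tbxas1 ran from 23.3 to 57.4, Alox5 from 0 to 41.8 and Ptges from 4.71 to 12.6, ranges that overlap in turn. Ltc4s reached 5.52, Hpgds 1.24 and Ptgs2 0.963 per kb. With the length of the longest transcript in place of all exons Lta4h stood above Alox5ap, with means of 2328 and 1454 per kb, and the order of the other genes stayed as it was.

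**Figure D3:**
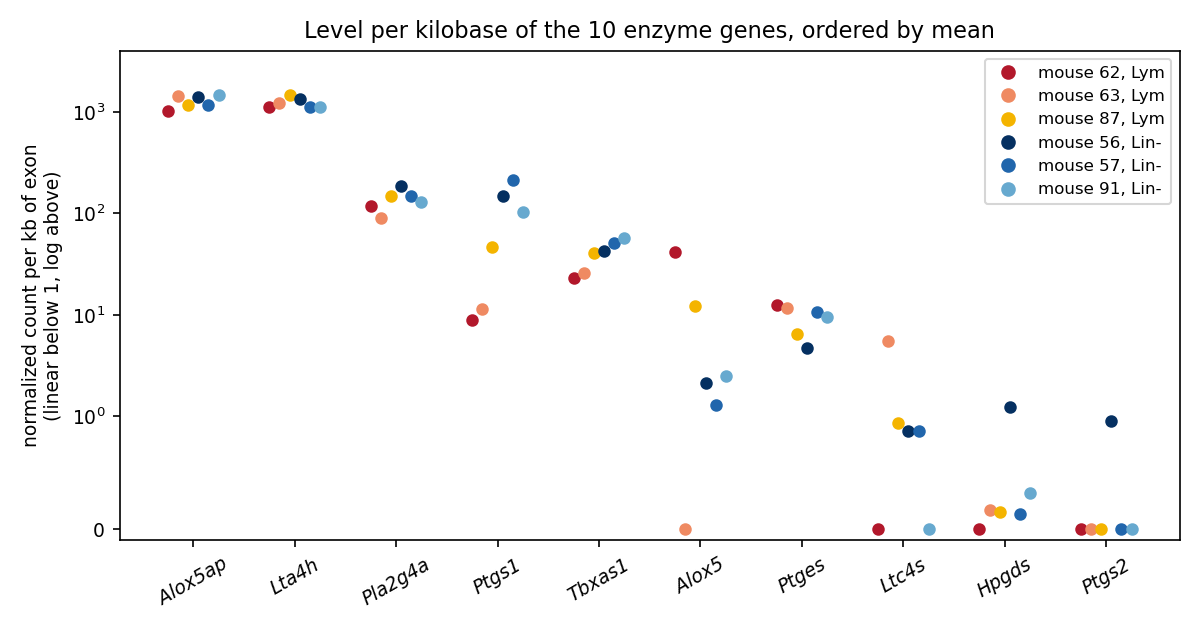
Normalized count per kilobase of annotated exon for the 10 enzyme genes in the 6 libraries, ordered by mean, on an axis that is linear below 1 and logarithmic above. Alox5ap and Lta4h lie at 1031 or more in all libraries, and Ptgs1 is the gene above the filter whose Lym and Lin- points are farthest apart without overlap.

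Genes that act before, beside and after these enzymes were taken from a pathway list of 9 roles. Of 72 listed genes in the table other than the 10 enzymes, 37 passed the filter, and 0 of the 37 passed an adjusted p of 0.05 in limma, while 5 had an unadjusted p under 0.05, near the 10.2% of all genes tested. Without Lym mouse 87 limma called 3 higher (Ptger4, Pla2g15 and Lpcat2) and 1 lower in Lym (Mgst1), a share near the 9.67% called over all genes. 15 of the 37 differences were positive and 22 negative, with a median of -0.10 against -0.01 over all genes tested. 5 had groups that did not overlap, 1 higher and 4 lower in Lym, where 8.49% and 7.08% of all genes tested did so.

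Among receptors for prostanoids, 4 of 9 passed the filter. Ptger4, the EP4 receptor for prostaglandin E2, was at 156, 98.5 and 32.4 across the Lym libraries and at 6.18, 15.0 and 18.6 across the Lin- libraries. Lym lay above Lin- in every library, opposite to Ptgs1, with mouse 87 nearest to Lin-. The log2 difference was 2.53 ± 0.64 (SE, limma adjusted p = 0.42). It passed in DESeq2 at 2.86 (adjusted p = 0.00194), where 1.39% of all genes were called. Limma called it with library weights (adjusted p = 0.0333) and, at 3.15, without Lym mouse 87 (adjusted p = 0.013), beside 4.62% and 9.67% of all genes. Neither edgeR (adjusted p = 0.397) nor limma-voom (adjusted p = 0.509) called it. With any other single mouse left out, the limma adjusted p was 0.598 to 0.852. Ptger2, the EP2 receptor, had means of 76.1 ± 20.7 in Lym and 131 ± 52.2 in Lin- (SD, n = 3 each), and Ptgir, the prostacyclin receptor, 357 ± 42.4 and 461 ± 70.9. Neither passed in limma (adjusted p = 0.541 and 0.533). Tbxa2r, the thromboxane receptor, reached at most 7.85 in any library, and Ptgdr2 had no read.

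Of 5 leukotriene receptors 2 passed the filter. Cysltr1, which binds the cysteinyl leukotrienes, was at 136, 236 and 185 across the Lym libraries and at 348, 251 and 278 across the Lin- libraries. Its groups did not overlap, and the log2 difference was -0.67 ± 0.26 (SE, limma adjusted p = 0.461). Ltb4r1, the high-affinity receptor for leukotriene B4, was at 233, 133 and 59.1 against 164, 139.9 and 139, with the Lym values on both sides of the Lin- range and a log2 difference of -0.26 ± 0.45 (SE, limma adjusted p = 0.856), or 0.26 without Lym mouse 87.

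Hpgd, the dehydrogenase that inactivates prostaglandin E2, was the most abundant gene of the pathway. It stood at 17244, 30689 and 16718 across the Lym libraries and at 24177, 26682 and 23380.2 across the Lin- libraries. Its mean level of 13754 per kb exceeded that of 99.8% of all genes tested. The groups overlapped, with a log2 difference of -0.26 ± 0.22 (SE, limma adjusted p = 0.69), and 0.08 with library weights. Ptgr1, a reductase of the same breakdown route named here after its values were seen, was at 307, 369 and 303 in Lym and 593, 621 and 411 in Lin-. Its log2 difference was -0.71 ± 0.21 (SE, limma adjusted p = 0.421). The exporters Abcc1 and Abcc4 had means of 2608 ± 505 and 2089 ± 108 in Lym against 2133 ± 229.9 and 2364 ± 235 in Lin- (SD, n = 3 each).

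2 further prostaglandin E synthases had higher mean levels per kb than Ptges, at 1155 for Ptges3 and 40.7 for Ptges2 against 9.28. Ptges3, the cytosolic form that is also the Hsp90 cochaperone p23, had means of 2327 ± 487 in Lym and 2796 ± 338 in Lin- (SD, n = 3 each), and Ptges2, a membrane-associated form, 169.9 ± 51.8 and 242 ± 11.9. Ptges2 was lower in all 3 Lym libraries, at 144, 137 and 229.6 against 255, 238 and 232, with mouse 87 just under the Lin- range (limma adjusted p = 0.507). The aldose reductase Akr1b3, with means of 614 ± 70.7 and 586 ± 43.5, differed by 0.06 ± 0.16 (SE) on the log2 scale. All 5 further lipoxygenases, Alox12, Alox15, Alox12b, Alox8 and Aloxe3, fell below the filter, at 7.62 or less in every library, and Alox12 had no read.

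Beside leukotriene C4 synthase stand microsomal glutathione transferases of the same protein family. Mgst2, which can also make leukotriene C4, was at 403, 572 and 160.1 across the Lym libraries and at 271, 607 and 248 across the Lin- libraries. It was thus well above the floor in all 6 libraries, unlike Ltc4s, and its groups overlapped (limma adjusted p = 0.981). Mgst1 was at 20.2, 3.36 and 146 against 124, 65.1 and 317, with Lym mouse 87 inside the Lin- range. Its log2 difference was -2.42 ± 1.10 (SE, limma adjusted p = 0.495), and it passed without that mouse, at -3.67 (limma adjusted p = 0.0212). Mgst3 had means of 59.2 ± 26.0 and 82.2 ± 12.9 (SD, n = 3 each).

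Among the 18 other genes of arachidonate release, 6 passed the filter. Pla2g15, the lysosomal phospholipase, had means of 1316 ± 301 in Lym and 1019.5 ± 51.6 in Lin- (SD, n = 3 each), and its log2 difference of 0.34 ± 0.18 (limma adjusted p = 0.541) passed without Lym mouse 87, at 0.54 (limma adjusted p = 0.0325). The calcium-independent phospholipase Pla2g6 had means of 577 ± 129.6 and 398 ± 86.4, and the diacylglycerol lipase Daglb 699 ± 42.0 and 819 ± 54.2. The 7 genes listed under arachidonate reacylation all passed the filter. Acsl4, the ligase that prefers arachidonic acid, had means of 1472 ± 580.5 in Lym and 1164 ± 231 in Lin-, Acsl1 2222 ± 354 and 1920.5 ± 63.7, and Mboat7 951 ± 165 and 817 ± 66.6. Lpcat2, an acyltransferase that also makes platelet-activating factor and is named here after its values were seen, was at 770.5, 318 and 3.81 across the Lym libraries and at 1.76, 36.1 and 0 across the Lin- libraries. Lym mouse 87 lay inside the Lin- range for this gene, and the log2 difference was 4.10 ± 1.78 (SE, limma adjusted p = 0.487). Without that mouse it was 6.24 and passed (limma adjusted p = 0.0122).

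**Figure D4:**
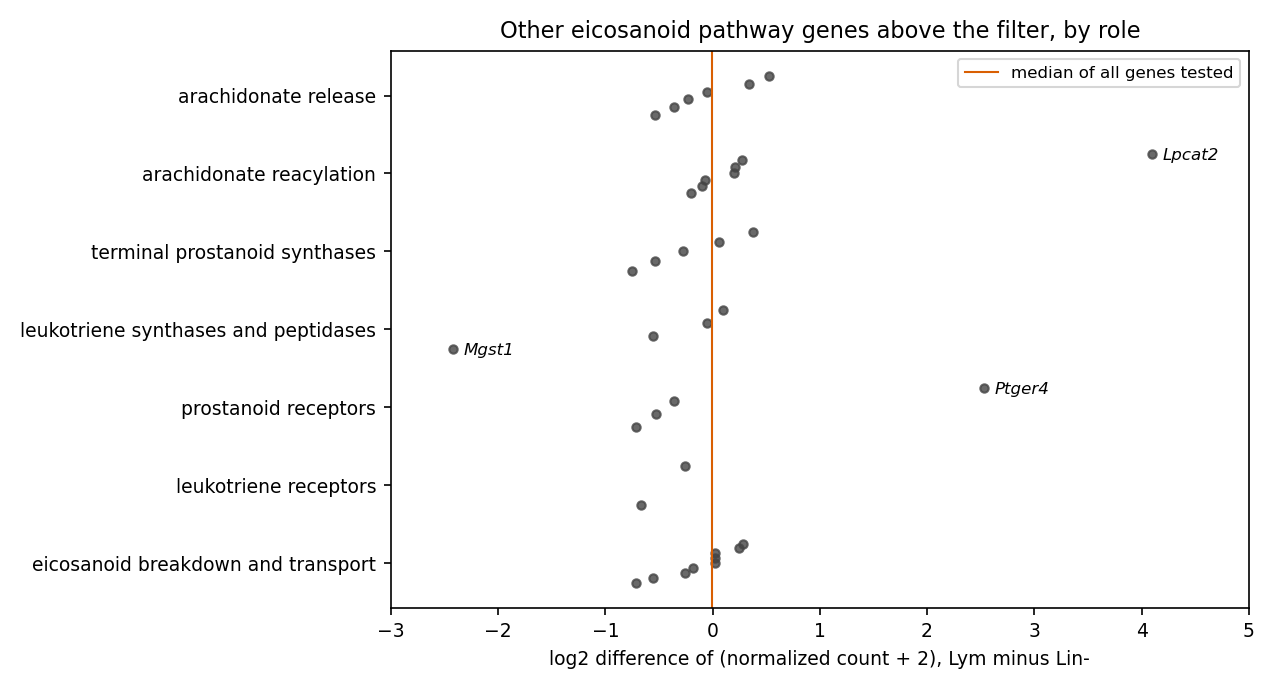
Log2 difference of (normalized count + 2), Lym minus Lin-, of the 37 other pathway genes above the filter, 1 point per gene and 1 row per role, with a line at the median of all genes tested. Most points lie within 1 of 0, and Lpcat2 (4.10), Ptger4 (2.53) and Mgst1 (-2.42) lie beyond it.

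Marker genes of cells known for these enzymes were read in the same libraries, as a sum of CPM, counts scaled to the total of each library. In bulk RNA, fewer cells of a type and less RNA per cell cannot be told apart. The 15 monocyte and macrophage markers summed to 1886 to 3137 CPM in Lym and 3025 to 3477 in Lin-, 9 of 11 tested had negative differences, and F13a1 and Ccr2 led the list. Ms4a6c came next by mean and ran the other way, with means of 4424 in Lym and 3581 in Lin- and overlapping groups. Ly6c2, a marker of inflammatory monocytes named here after its values were seen, was at 961, 2608 and 3356 across the Lym libraries. Across the Lin- libraries it was at 4430.4, 4942 and 4819.8. C1qa had no read in any library. The 9 markers with negative differences lay in the direction of Ptgs1 and Tbxas1 and the 2 with positive ones did not. The part of these cells in the Ptgs1 and Tbxas1 values was not tested.

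The 12 megakaryocyte and platelet markers were low, with every Lym library above every Lin- library, at 4.59 to 28.5 CPM against 1.75 to 3.40. Itga2b, an integrin that progenitors also carry, led the list at 546, 218 and 46.7 against 45.9, 27.3 and 18.6, followed by Selp at 30.3, 51.5 and 35.3 against 1.76, 18.5 and 8.25. Itga2b and Selp gave most of the sum. Ppbp, Gp1bb and Treml1 had no read, Pf4 had at most 3 in any library, and Gp5 had 9 reads in Lin- mouse 57 only. The part of these cells in the Tbxas1 values was not tested. The 12 mast cell and basophil markers gave 1147, 367 and 119 CPM across the Lym libraries, all above the 54.9 to 103 CPM of Lin-. Cpa3, a mast cell and progenitor protease, led this list in Lym mice 62 and 63, at 15971, 3966 and 343 against 196, 147 and 6.19. Gata2, which is on the progenitor list too, led it in the other libraries, at 6521, 2938 and 1505 against 1152, 974 and 798. These genes gave most of the sum. Mcpt8 was level, with means of 181 in Lym and 186 in Lin-, the groups of Hdc and Ms4a2 overlapped, and Cma1 and Fcer1a had no read. Alox5 was highest in Lym mouse 62, where this list was highest, but had no read in Lym mouse 63, whose list came second, and the part of these cells in its values was not tested. The 9 eosinophil markers came to 16.6 to 57.5 CPM in Lym and 5.4 to 28.3 in Lin-, nearly all from Siglecf, with Ear6 at 0. Below the filter, Prg3 (means of 4.26 in Lym and 14.1 in Lin-) and Epx were lower in Lym. Prg2, Ccr3, Il5ra, Ear1 and Ear2, also below it, had higher means in Lym. Prg2 and Ear2 had at most 3 reads in any library, Ear1 had reads in Lym mouse 63 only, and Epx passed the floor in Lin- mouse 57 only. Depth thus limits these directions. The 12 neutrophil markers came to 11.1 to 20.7 CPM against 5.0 to 15.9, with Ly6g at 0. Mmp8, Cxcr2 and Cebpe, the 3 that passed the filter, had positive differences. S100a8, S100a9, Ltf, Camp, Ngp and Fcnb ran the other way below the filter, with Ngp at means of 2.5 in Lym and 24.4 in Lin-. Ngp had no read in Lin- mouse 91, and S100a8 and Fcnb passed the floor in Lin- mouse 57 only, so depth limits these too. T and NK cell markers stayed at or below 17.3 CPM, erythroid ones below 1, and stromal and endothelial ones at 252 to 449, nearly all from Pecam1. The lymphoid list, led by the pan-leukocyte gene Ptprc, summed to 323 to 529 CPM in Lym and 315 to 334 in Lin-, and the progenitor list to 4395 to 7004 and 3746 to 4220.5.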

How the data were processed

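Bone marrow cells of 6 mice were sequenced, 3 Lym and 3 Lin-, grouped by the labels' titles. Per the labels' protocols, libraries came from 2 ng of total RNA (1 ng for Lym mouse 62) with a stranded kit and 12 PCR cycles. Per the submitters' processing notes, reads were trimmed with Trim Galore 0.6.4, aligned with STAR 2.6.1d and counted with featureCounts 1.6.4 by the authors, with GRCm38.p6 named as build and DESeq2 as a further tool. The annotation release and the treatment of strand and of shared reads are not given in the sources used here. The deposited values form a normalized signal: reads per gene over a size factor that the authors set for each library. All checked values (up to 10000) were whole multiples of a library's step within 0.01, so whole reads were recovered (18537700 to 22634286 per library). Per the file headers the deposited table also gives a log2 fold change, a Wald score and a p-value of the authors' own comparison, not used for calls here.

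Differences were fitted with limma 3.58.1 (R 4.3.3, trend option) on log2(normalized count + 2) over all 14273 genes reaching 10 normalized counts in 3 or more libraries, with Benjamini-Hochberg adjustment and a threshold of 0.05. edgeR 4.0.16 (TMM, quasi-likelihood), DESeq2 1.42.0 and limma-voom on recovered reads, other scalings, pseudocounts and filters, library weights and leaving out each mouse were alternatives, and edgeR and DESeq2 without Lym mouse 87 were added after seeing the data. Fits were also run on simulated data with the same spread for every gene. That run did not model the unlikeness of the Lym libraries, and nothing is read from it. Lengths and overlaps came from GENCODE M21, whose coordinates equal those of the table for all 10 genes, and promoters from RefSeq. The members and lists were chosen with earlier results of these data known. Genes named were all 10 members, the 3 most abundant tested genes of each role, the 5 nearest to Ptgs1 and leading or absent markers. Ptgr1, Lpcat2, single low genes and some further markers of the cell type lists were chosen after their values were seen. Of the listed symbols, Plaat3, Prxl2b and Ptgr3 stand in the table under older names, which were listed too. Some markers of the lists are not reported here.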

Additional observations from a re-analysis of the deposited data

How the results depend on the processing

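No paired analysis was possible because the mouse numbers are not shared between the groups. The 0 genes called in limma stayed 0 with edgeR, limma-voom, TMM or library total scaling, a pseudocount of 0.5 and a mean of at least 50, became 1 with a pseudocount of 8, 5 without the filter, 226 with DESeq2 and 660 with library weights, and ran from 0 to 1348 when each mouse was left out, the highest in the absence of Lym mouse 87, and 1 once Lin- mouse 91 was dropped. Chosen after seeing the data, edgeR and DESeq2 without Lym mouse 87 called 1286 and 2074, a range of 0 to 2074 with these. The weights were lowest for Lym mouse 87, at 0.36, and Lym mouse 62, at 0.54. Enzyme genes called, Ptgs1 aside, stayed at 0 except for 1, Tbxas1, with library weights (-0.93, limma adjusted p = 0.0387) and without Lym mouse 87, a range of 0 to 1. Over its alternatives the Ptgs1 difference ran from -3.80 to -2.63. With library weights the sign turned for Alox5 (-0.70), Akr1b3 (-0.06), Mgst2 (0.54) and Hpgd (0.08), and for Mgst2 also in edgeR (0.0079) and DESeq2 (0.0097). Leaving out each mouse gave -0.03 to 0.59 for Ptges, -0.03 to 0.16 for Lta4h (-0.04 in edgeR and in DESeq2 without Lym mouse 87), -0.43 to 0.48 for Mgst2 and -0.72 to 0.26 for Ltb4r1. The cause of these changes was not tested. Ptgs2, Hpgds and Ltc4s had at most 5, 9 and 5 reads in any library, so depth limits any comparison of them.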
